A study of Mus musculus with 23 samples.

Results

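The subject is the nuclear genes of the mitochondrial respiratory chain and the ATP synthase, followed from control liver to pre-metastatic liver and primary tumor. The 91 genes were chosen by name among the 21886 protein-coding rows of a table of 48897 rows. A gene was taken if its symbol began with Nduf, Uqcr or Atp5, if it was Sdha, Sdhb, Sdhc, Sdhd or Cyc1, or if it read Cox, a number from 4 to 8 and then a, b or c. By complex, 36 were subunits of complex I, 7 were complex I assembly factors, 4 belonged to complex II, 9 to complex III, 18 to complex IV and 17 to the ATP synthase. The 17 included Atp5s and Atp5sl, which were placed there by symbol and not classed as subunits of its head, stalk or membrane part. The rule used no measured value. It missed Cox4i1, a complex IV subunit whose symbol has another form, and the 13 subunits encoded by mitochondrial DNA, and both are given further on beside the members.

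The libraries were poly(A) RNA-seq of whole tissue from male BALB/c mice, 4 to 6 weeks old when they were assigned to groups. Control livers came from 5 sham-operated mice without tumors (C1, C4, C5, C6 and C7). The other 9 mice (M1, M2, M4, M5, M6, M7, M8, M10 and M12) had CT26 cells, a BALB/c mouse colon carcinoma line, injected at the cecum, and each gave a liver, called pre-metastatic, and its matched primary tumor 3 weeks later. The tumors therefore all grew from 1 cell line, and each library came from 1 mouse. Library totals ran from 44587556 to 79773163 counts.

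Complexes I, III and IV pass electrons from NADH and ubiquinol to oxygen and pump protons across the inner membrane of the mitochondrion, complex II feeds electrons in from succinate, and the ATP synthase uses the returning protons to make ATP. All of these but complex II combine subunits made from nuclear genes with subunits made inside the mitochondrion. Hepatocytes are rich in mitochondria and depend on this machinery for gluconeogenesis, urea synthesis and fatty acid oxidation.

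Marker genes fixed for this work were checked first. The summed RPKM (the count of a gene divided by its length in kilobases and by the total of the library) of 8 hepatocyte markers was 52406 to 60995 in control livers, 37888 to 79212 in pre-metastatic livers and 10.7 to 318 in tumors. Of these 8 markers, 1 was called higher and 2 were called lower in pre-metastatic than in control liver. For all genes tested the shares were 17.7% and 13.3%. Cps1 and Ass1 of the urea cycle had 998 to 1928 and 1043 to 3373 RPKM in controls and 169 to 683 and 266 to 985 in pre-metastatic livers, and Fgb, a fibrinogen chain, had 2600.4 to 4795 and 4733 to 13208. The 5 epithelial markers, which a carcinoma might carry, summed to only 3.88 to 14.5 RPKM in the tumors. A list of 5 intestinal epithelium markers summed to 35.5 to 116 RPKM there. Of these, Krt20, a keratin, had 27.8 to 113 RPKM in tumors and at most 1.31 in livers. Vil1, Cdx2, Lgals4 and Fabp2 had at most 5.47 RPKM in tumors. The 8 leukocyte markers summed to 36.0 to 71.0 RPKM in control livers, 88.6 to 342 in pre-metastatic livers and 1173 to 2984 in tumors. In the same order, 4 cycling cell markers summed to 0.283 to 0.683, 1.17 to 8.49 and 222 to 342 RPKM, 5 fibroblast markers to 68.6 to 104, 46.8 to 158 and 631 to 1035, and 3 red cell precursor markers to medians of 11.7, 49.1 and 1.99. The fibroblast sum of control livers was mostly Dcn, at 63.8 to 97.0 RPKM, and Dcn was 20.9 to 98.2 in pre-metastatic livers. The collagens of that list went up without overlap. Col1a1 had 0.442 to 1.14 RPKM in control and 2.02 to 10.1 in pre-metastatic livers. In the same order Col1a2 had 1.58 to 2.64 and 3.59 to 15.9, and Col3a1 had 1.47 to 2.81 and 6.36 to 32.8. Pdgfrb overlapped, at 0.676 to 1.07 and 0.386 to 1.76. The part of these markers in the members' results was not tested. In whole tissue, fewer cells of a type and less RNA per cell cannot be told apart. Skeletal muscle markers stood out in 4 libraries, with summed RPKM of 105 in control C1, 28.8 in the liver of M4, 558 in the tumor of M4 and 127 in the tumor of M7, and at most 4.47 elsewhere. Clock genes placed 4 control livers and 5 pre-metastatic livers in an early phase and 1 and 4 in a late phase of the day. The sampling hour was not given in the sources used here.

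In the livers of tumor-bearing mice, respiratory chain genes were lower as a group. The summed RPKM of all 91 members was 14014, 13857, 14165, 12907 and 13028 in control livers C1, C4, C5, C6 and C7. In the pre-metastatic livers it was 8867 in M1, 11336 in M2, 11477 in M4, 12014 in M5, 8601 in M6, 8865 in M7, 9809 in M8, 12548 in M10 and 9149 in M12. Every pre-metastatic liver lay below the lowest control, C6. In tumors the sum ran from 9185 in M5 through a median of 9744 to 11365 in M10.

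The complexes kept 1 order of mean summed level in both kinds of liver. The ATP synthase genes summed to 3840 ± 156 RPKM in control (SD, n = 5) and 2940 ± 417 in pre-metastatic livers (SD, n = 9), with 3433 ± 317 in tumors (SD, n = 9). Complex I genes summed to 3749 ± 138, 2833 ± 418 and 2658 ± 188 in the same order, and complex IV genes to 3438 ± 220, 2632 ± 436 and 2694 ± 266. Complex III genes summed to 1877 ± 64.8, 1390 ± 209 and 960 ± 99.7, and the 4 complex II genes to 628 ± 28.3, 450 ± 65.9 and 313 ± 30.5. Complexes I, II and III thus had their lowest mean sums in tumor, while the mean ATP synthase sum in tumor lay between those of the livers. For complexes II and III every tumor lay below every liver. The highest tumor sums were 356 and 1131 RPKM, and the lowest liver sums were 365 and 1172. The RPKM scale divides by all counts of a library, so these sums depend on what else a library holds.

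**Figure D1:**
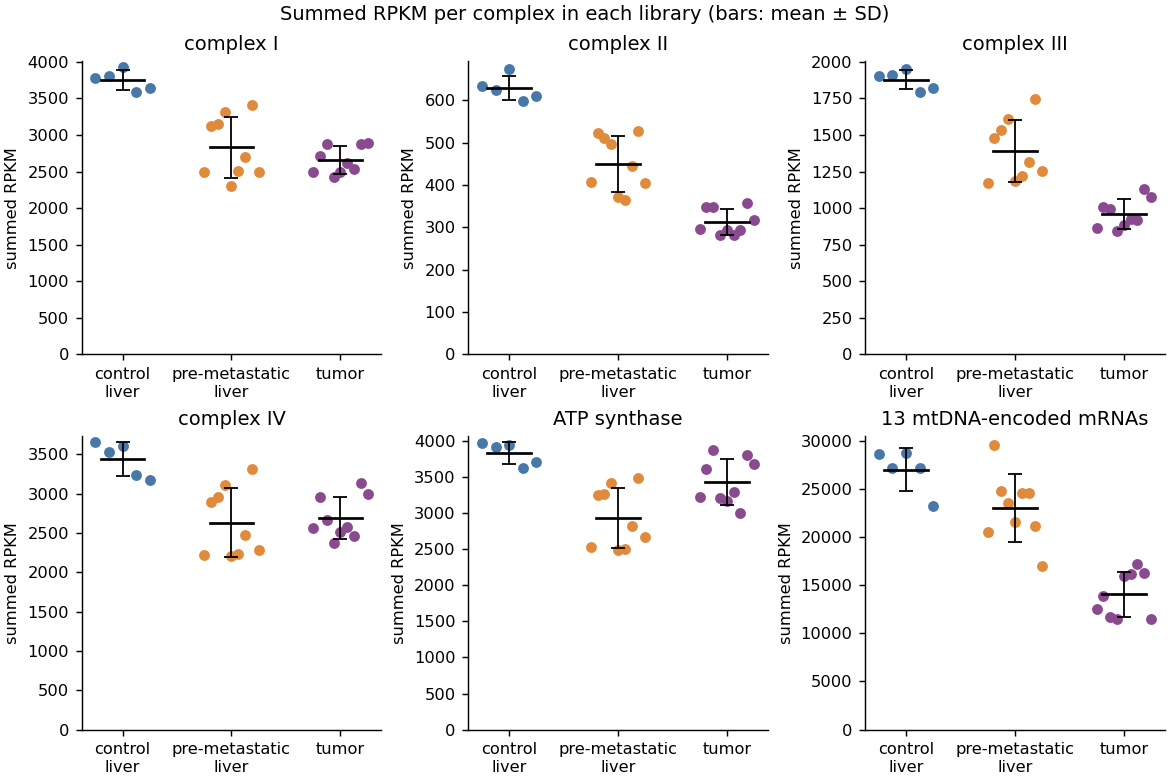
Summed RPKM of the members of complexes I to IV and the ATP synthase, and of the 13 mRNAs from mitochondrial DNA, with a panel for each and axes that start at 0. Points are single libraries of 5 control livers, 9 pre-metastatic livers and 9 tumors, and black bars are group means ± SD. Each complex was lower in pre-metastatic than in control livers on average. Complexes I, II and III and the 13 mRNAs had their lowest means in tumors.

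The first question the design poses is what a distant primary tumor does to the liver before metastases are seen. Of the 88 members with enough counts to test (10 counts in at least 5 libraries), 56 were lower and 1 was higher in pre-metastatic than in control liver (edgeR quasi-likelihood test with TMM scaling, adjusted p under 0.05). Among all 16987 genes tested, 13.3% were called lower and 17.7% higher. The median log2 fold change of the members was -0.29, a difference of -18.4%, against 0.01 for all genes tested. The number of members called lower rested partly on single libraries. It was 39 without control C1 and 66 without the liver of M10, and 41 when C1 and the liver of M4, the livers with muscle markers, were left out together. All 56 were also called lower when libraries were scaled by their totals alone, which lowered the median of all genes to -0.07. Scaling by upper-quartile factors raised that median to 0.04, and the members' median was then -0.27.

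The RPKM values of 41 of the 88 members did not overlap between the groups, all 9 pre-metastatic livers lying below all 5 controls, and no member lay above in that way. Such a full separation downward was seen for 6.09% of all genes tested.

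**Figure D2:**
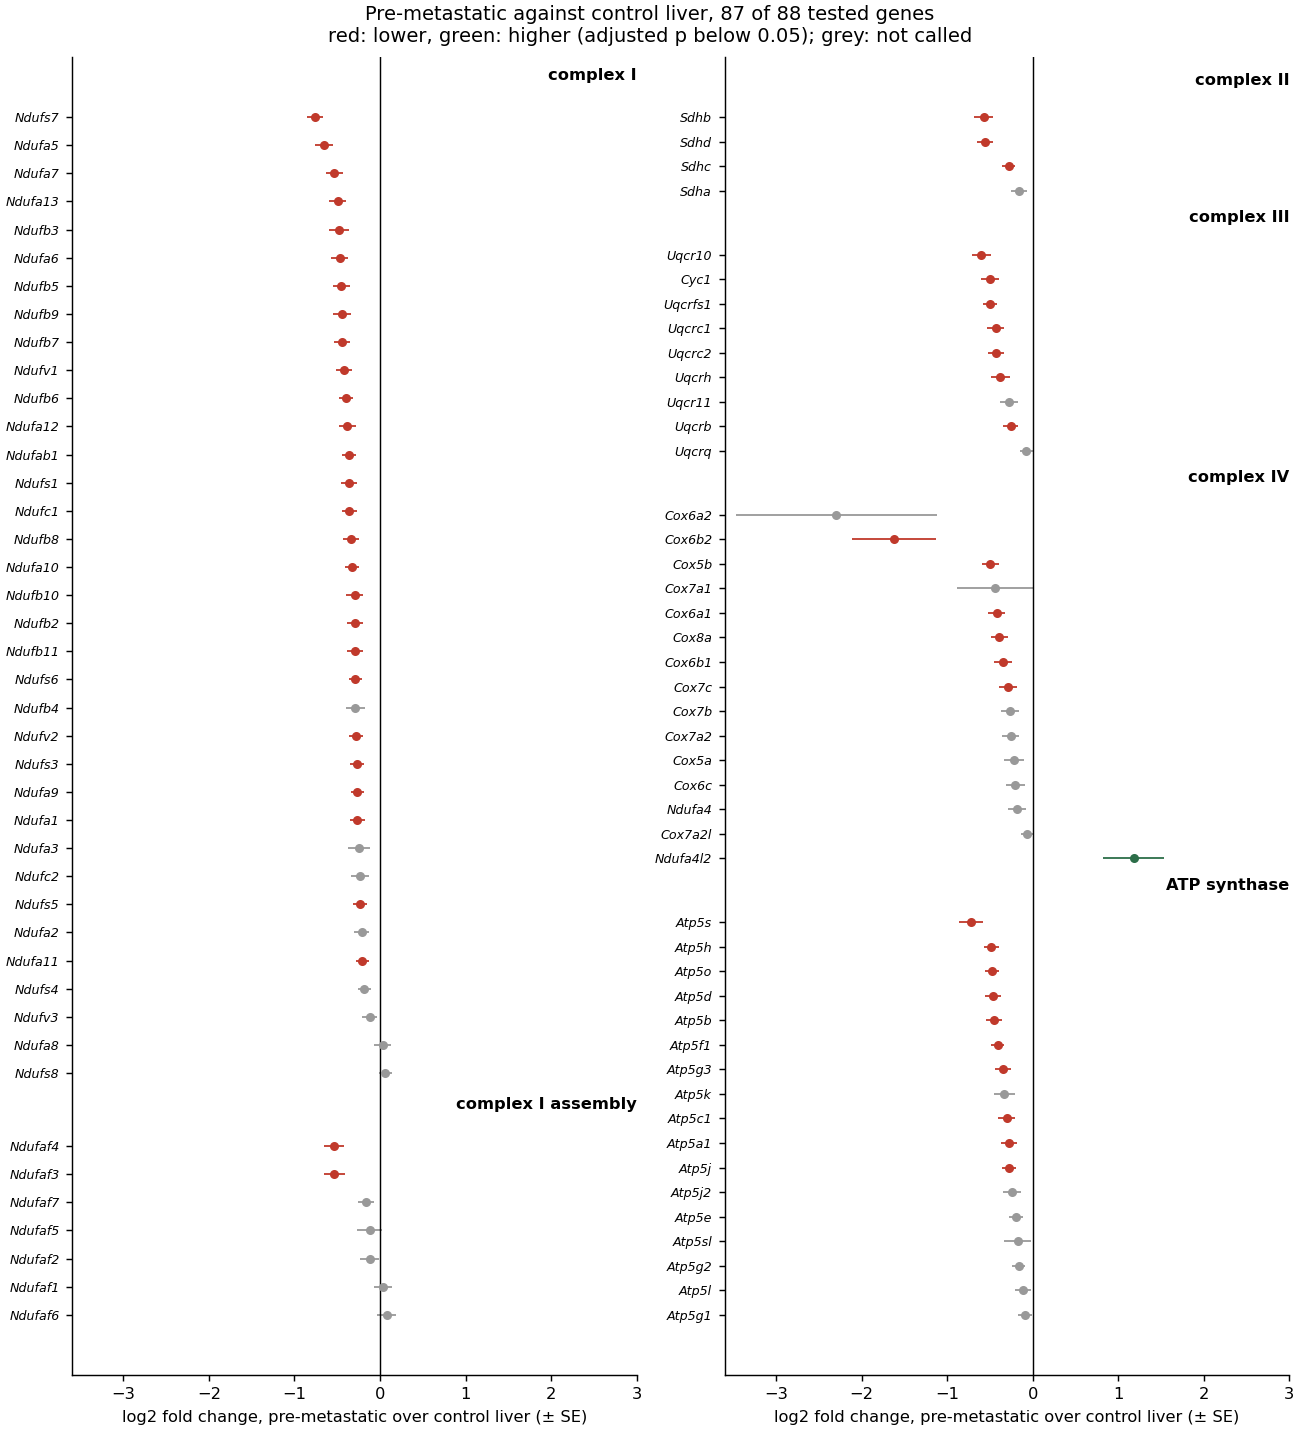
Log2 fold change (pre-metastatic over control liver, edgeR, TMM scaling) of 87 of the 88 members tested, grouped by complex, with bars of 1 standard error. Members called lower are red, called higher green and not called grey, and Ndufa4l2 is the single green point.

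Complex I takes electrons from NADH in its peripheral arm and pumps protons in its membrane arm. Of its 36 nuclear subunits, 28 were called lower and none higher. In the peripheral arm these were 6 of the 7 core subunits, which carry the flavin and the iron-sulfur clusters, and 7 of the 10 accessory subunits. In the membrane arm they were 15 of the 19 accessory subunits.

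Ndufs7, which holds the last iron-sulfur cluster before ubiquinone, showed the largest fall within complex I. Its RPKM was 116, 101, 134, 101 and 99.5 in control livers C1, C4, C5, C6 and C7. In the 9 pre-metastatic livers it ran from 51.2 through a median of 59.7 to 78.2. The groups did not overlap, and the log2 fold change was -0.76 ± 0.10 (SE, edgeR adjusted p = 8.7e-05). The promoter of Ndufs7 is shown because it fell the most in complex I, and that of Sdhd, a complex II anchor described next, because it held 3 of the motifs searched. Sdhd was not alone in this, as Atp5g3, Atp5k, Atp5l and Uqcr11 also held 3 or more. Each window (RefSeq, GRCm38.p6) covers the 250 bases before and the 50 bases after the start of the gene, on the strand of the gene. The start is that of RefSeq, which for Ndufs7 lies 328 bases downstream of the start in the deposited table and for Sdhd is the same base.
Ndufs7, chr10:80249199-80249498, plus strand: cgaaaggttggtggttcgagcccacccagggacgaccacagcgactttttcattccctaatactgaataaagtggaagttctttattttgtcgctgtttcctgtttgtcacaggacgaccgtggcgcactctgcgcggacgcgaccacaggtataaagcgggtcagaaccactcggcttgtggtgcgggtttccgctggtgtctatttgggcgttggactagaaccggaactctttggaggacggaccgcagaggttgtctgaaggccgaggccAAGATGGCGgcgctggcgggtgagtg
Sdhd, chr9:50603800-50604099, minus strand: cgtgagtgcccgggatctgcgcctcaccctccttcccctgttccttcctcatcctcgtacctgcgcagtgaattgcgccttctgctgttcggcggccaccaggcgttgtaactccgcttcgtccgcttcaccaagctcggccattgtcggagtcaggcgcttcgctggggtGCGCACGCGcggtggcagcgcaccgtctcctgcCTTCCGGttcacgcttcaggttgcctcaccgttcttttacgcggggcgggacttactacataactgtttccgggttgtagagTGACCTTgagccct
Capitals mark strings that a search found. In Ndufs7 this was AAGATGGCG, a form of the YY1 motif. In Sdhd these were, from left to right, GCGCANGCG, a form of the motif of nuclear respiratory factor 1 (NRF1), CCGGAAG on the reverse strand, a core of the ETS family that includes GABPA, and AAGGTCA on the reverse strand, the half-site of estrogen-related receptors.

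Those motifs were counted in all promoter windows, since NRF1, GABPA, YY1 and estrogen-related receptor alpha are known regulators of respiratory chain genes. The table of windows held 78 for 73 of the members, among 32851 windows in all. GCGCANGCG stood on either strand in 29.5% of the members' windows and 6.25% of all windows. CCGGAAG stood in 21.8% and 8.86%, AAGATGGCG in 8.97% and 1.40%, and AAGGTCA in 10.3% and 4.72%. At least 1 of the first 3 was in 39 of the 78 member windows, 50% of them, and in 14.8% of all windows. A string is a description of the sequence and not a bound site.

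Ndufa5, an accessory subunit of the peripheral arm, had 105, 106, 106, 93.7 and 111 RPKM in the controls. It had 46.3 to 85.8 RPKM with a median of 64.3 in the pre-metastatic livers. All pre-metastatic values were below all control values (log2 fold change -0.65 ± 0.10, SE, edgeR adjusted p = 0.00031). Ndufa7 of the same arm fell by 0.53 ± 0.10 (SE) on the log2 scale (edgeR adjusted p = 0.00088). Ndufb9, the complex I subunit with the highest mean RPKM in control liver, fell from 274 to 193 RPKM on average (edgeR adjusted p = 0.0063). Ndufa11, the one with the lowest mean, was at 17.5 and 14.4 RPKM. Its call, with an adjusted p of 0.047, was lost without any 1 of 13 of the 14 livers, all but that of M10, in turn. Not all subunits moved: Ndufs8, an iron-sulfur subunit, averaged 62.4 RPKM in control and 61.8 in pre-metastatic livers, and Ndufa8, a membrane arm subunit, 125 and 120.

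The 7 complex I assembly factors, which build the complex but do not stay in it, were called lower in 2 cases. Both were partners in building the ubiquinone-binding module. Ndufaf3 averaged 12.8 RPKM in control and 8.35 in pre-metastatic liver (edgeR adjusted p = 0.0043). Ndufaf4 averaged 12.7 and 8.23 RPKM (edgeR adjusted p = 0.0027). The remaining 5 had log2 fold changes between -0.17 and 0.08, none called.

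Complex II, succinate dehydrogenase, works in both the respiratory chain and the TCA cycle, and 3 of its 4 genes were called lower. Sdhb, the iron-sulfur subunit, had 207, 184, 215, 181 and 172 RPKM in the controls and 86.9 to 154 with a median of 117 in the pre-metastatic livers. Sdhd had 170, 176, 187, 155 and 181 RPKM in the controls and 93.7 to 137 with a median of 109. Sdhc, the second membrane anchor, had 118, 120, 119, 113 and 112 RPKM in the controls and 72.4 to 107 with a median of 91.0. None of the 3 overlapped between the groups. Their log2 fold changes were -0.57 ± 0.11, -0.56 ± 0.10 and -0.28 ± 0.07 (SE, edgeR adjusted p = 0.0015, 0.00063 and 0.0094). Sdha, the flavin subunit, behaved differently. It had 139, 144, 152, 149 and 146 RPKM in the controls and 91.1 to 159 with a median of 127 in the pre-metastatic livers, which overlapped, and was not called (log2 fold change -0.16 ± 0.09, SE, edgeR adjusted p = 0.21). Whether the fall of Sdha differed from that of its partners was not tested.

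Complex III passes electrons from ubiquinol to cytochrome c, and 7 of its 9 genes were called lower. Uqcr10, a small subunit, had 263, 273, 275, 242 and 253 RPKM in the controls and 130 to 234 with a median of 151 in the pre-metastatic livers, with no overlap (log2 fold change -0.60 ± 0.11, SE, edgeR adjusted p = 0.00097). Cyc1, cytochrome c1, had 170, 159, 197, 151 and 151 RPKM in the controls and 88.6 to 135 with a median of 115. Uqcrfs1, the Rieske iron-sulfur protein, had 161, 156, 161, 146 and 154 RPKM in the controls and 88.6 to 124 with a median of 97.0. Both redox subunits were separated fully between the groups and fell by 0.50 on the log2 scale (edgeR adjusted p = 0.0020 and 0.00062). The genes not called were Uqcrq, at 225 and 203 RPKM on average, and Uqcr11, at 363 and 285.

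In complex IV, cytochrome c oxidase, 5 of the 10 ubiquitous subunits were called lower and none higher. Cox6a1, the member of highest mean RPKM in both kinds of liver, had 791, 715, 802, 604 and 642 in the controls and 422 to 628 with a median of 488 in the pre-metastatic livers. The groups overlapped only in that range between 604 and 628, and the log2 fold change was -0.42 ± 0.10 (SE, edgeR adjusted p = 0.0055). Cox5b, the zinc-binding subunit, averaged 300.2 and 203 RPKM without overlap (edgeR adjusted p = 0.0017). Ndufa4, named for complex I but now placed in complex IV, had 489, 536, 546, 529 and 478 RPKM in the controls and 348 to 557 with a median of 403, and was not called (edgeR adjusted p = 0.19). Outside the ubiquitous subunits, Cox6b2, the testis form of Cox6b1, had 0.456, 1.48, 1.81, 1.14 and 1.5 RPKM in the controls and 0.0879 to 1.03 with a median of 0.345. It was called lower at this low level (log2 fold change -1.62 ± 0.49, SE, edgeR adjusted p = 0.021), a call lost without control C5 (adjusted p = 0.061).

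The ATP synthase turns on a ring of c subunits in the membrane and makes ATP in the F1 head. In pre-metastatic liver 4 of the 5 head genes and all 4 stalk genes were called lower, with 1 of 3 c-ring genes and none of the 3 other small membrane subunits. The groups were not tested against each other, and the uncalled Atp5k of the small subunits was at -0.33 on the log2 scale with an edgeR adjusted p of 0.051. Atp5b, the catalytic beta subunit, had 668, 630, 710, 620 and 616 RPKM in the controls and 374 to 543 with a median of 438 in the pre-metastatic livers. No values overlapped, and the log2 fold change was -0.45 ± 0.09 (SE, edgeR adjusted p = 0.0024). Among the stalk genes, Atp5h averaged 115 and 78.1 RPKM and Atp5o, the oligomycin-sensitivity protein, 215 and 147. Atp5s, a coupling factor gene of low level, had 3.24, 2.60, 2.76, 2.44 and 2.69 RPKM in the controls and 1.04 to 1.93 with a median of 1.69 (log2 fold change -0.72 ± 0.14, SE, edgeR adjusted p = 0.0016).

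The single member called higher in pre-metastatic liver was Ndufa4l2, a paralog of Ndufa4 known to be induced by hypoxia. It had 0.547, 0.430, 0.503, 0.369 and 0.532 RPKM in the controls, and 0.307 to 2.31 with a median of 0.856 in the pre-metastatic livers. The highest value was that of mouse M1, and the groups overlapped. Its gene shares 32 bases with Shmt2 on the opposite strand, and the strand setting of the counts was not given in the sources used here. The log2 fold change was 1.18 ± 0.36 (SE, edgeR adjusted p = 0.020), and the call was lost without control C6 (adjusted p = 0.053) and among the early-phase livers alone (adjusted p = 0.12).

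The livers did not differ by the same amount. Of the 82 members with at least 1 RPKM in all 23 libraries, 40 had their lowest pre-metastatic RPKM in M6 and 22 in M7, while 40 had their highest in M10. The same count over all genes was not made, so these numbers describe the libraries on the RPKM scale and not the members alone. The median coefficient of variation of these members was 6.08% among control livers and 16.6% among pre-metastatic livers, against 11.9% and 16.6% for the 8012 genes that passed the same floor. In controls the members were therefore less variable than the median of these genes, and in pre-metastatic livers about as variable. The 8012 genes were not matched to the members for level, on which this coefficient depends. The share of counts in the 10 most abundant genes of a library also varied more among pre-metastatic livers. It was 15.7 to 17.1% in control livers and 15.0 to 27.9% in pre-metastatic livers. The 27.9% was that of M6, the liver with the lowest member sum in RPKM. Scaled by TMM, which lessens the weight of such genes, the members summed to 11102 to 13286 CPM (counts scaled to a common library size) in controls and 8322 to 11197 in pre-metastatic livers, and M10 alone reached the control range. The lowest TMM sums were 8322 in M1, 8638 in M7 and 8836 in M6, so which liver was lowest depended on the scaling. Among early-phase livers alone, 4 controls and 5 pre-metastatic, 59 members were called lower.

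The second question is how the primary tumor compares with the livers. Here the call of some members depended on the scaling. The 10 most abundant genes took 4.78 to 5.74% of the counts in tumors. With library totals in place of TMM factors, the median log2 fold change of all 17827 genes tested moved from 0.09 to 1.27, a shift of 1.18. The members' median lay at nearly the same distance from that of all genes under both, -1.34 with TMM and -1.35 with totals. A change of scaling moves all genes by nearly the same amount, so this distance could hardly differ. It was -0.72 with limma on log2(RPKM + 1).

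With TMM, 82 of 88 members were called lower and 5 higher in tumor than in pre-metastatic liver, against 40.5% lower and 43.8% higher of all genes tested. The median log2 fold change of the members was -1.25. With library totals 37 members were called lower and 19 higher, against 21% lower and 68.5% higher of all genes, and the members' median was -0.08. The 37 members lower with totals were all lower with TMM too, 5 were higher under both, and 13 were called in opposite directions, among them Atp5b, Cox5b, Cox6b1 and Ndufa12. The RPKM values of 13 members lay lower in all 9 tumors than in all 9 pre-metastatic livers, and those of 11 members lay higher. Over all genes tested, 14.5% lay lower and 55.8% higher in that way.

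**Figure D3:**
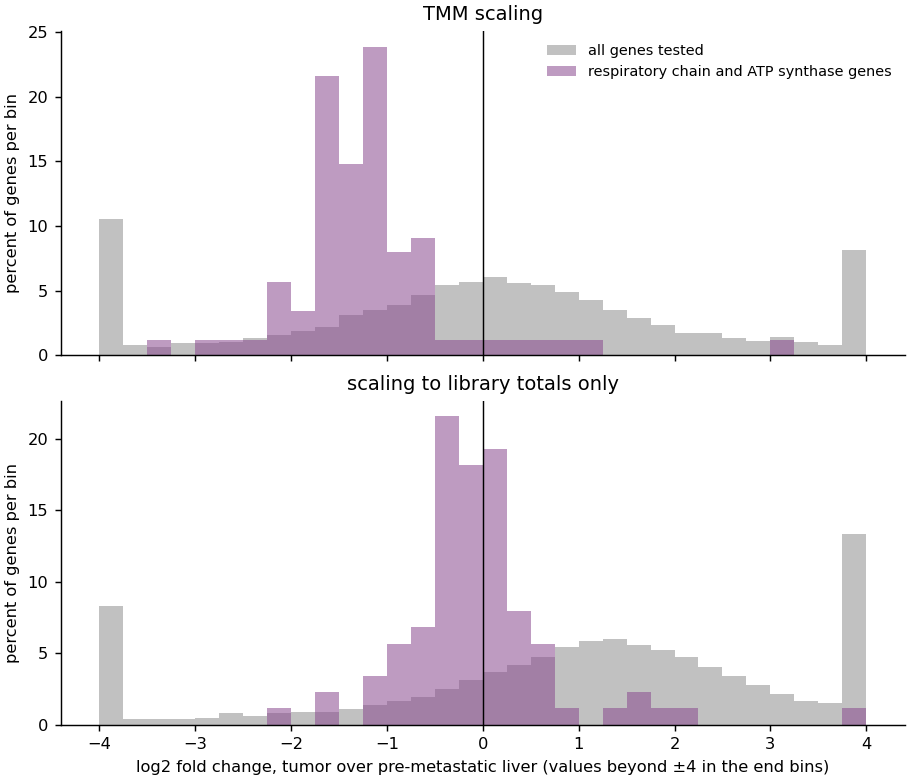
Histograms of the log2 fold change of tumor over pre-metastatic liver, as the percent of genes in each bin, for the 88 members (purple) and all 17827 genes tested (grey), with TMM scaling in the upper panel and library totals in the lower. The members' median is -1.25 in the upper panel and -0.08 in the lower, to the left of the median of all genes, 0.09 and 1.27, in each.

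Complexes II and III had the largest shares of genes called lower in tumor under both scalings. All 4 complex II genes and 7 of 9 complex III genes were called lower both ways, and none was called higher. Uqcrq, a small subunit of complex III, had 217, 229, 229, 212 and 239 RPKM in the controls, 177 to 235 with a median of 197 in pre-metastatic livers and 60.1 to 83.7 with a median of 67.9 in tumors. Every tumor lay below every liver. The log2 fold change from pre-metastatic liver was -2.70 with TMM and -1.52 with totals (edgeR adjusted p = 7.5e-16 and 4.8e-13). Uqcrfs1 had 45.5 to 57.9 RPKM with a median of 51.3 in tumors, a log2 fold change of -2.19 with TMM and -1.01 with totals. Sdha, which was not called in pre-metastatic liver, had 58.5 to 79.1 RPKM with a median of 73.3 in tumors, all below every liver, and its log2 fold change was -2.0 with TMM and -0.83 with totals (edgeR adjusted p = 1.3e-13 and 4.0e-07).

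In complex I, 36 of 36 genes were called lower with TMM, and with totals 15 were lower and 5 higher. Ndufs7, which led the fall in liver, had 54.8 to 71.5 RPKM with a median of 60.4 in tumors, within the pre-metastatic range. Its log2 fold change from pre-metastatic liver was -1.19 with TMM and -0.01 with totals (edgeR adjusted p = 9.1e-12 and 0.89). Among the assembly factors, Ndufaf1, which helps to build the membrane arm, fell from 12.9 to 5.55 RPKM on average, with log2 fold changes of -2.39 and -1.22. Ndufaf5, an enzyme that modifies Ndufs7, went the other way. It had 1.3 to 1.73 RPKM in controls and 3.54 to 5.04 with a median of 4.25 in tumors, and its log2 fold change from pre-metastatic liver was 0.51 with TMM and 1.67 with totals (edgeR adjusted p = 0.00076 and 1.2e-09). The TMM call was lost among mice with early-phase livers alone (log2 fold change 0.31).

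Against control liver, 82 of 88 members were called lower and 3 higher in tumor with TMM, and 66 lower and 9 higher with totals. Among all 19320 genes tested, 38.1% were lower and 44.2% higher with TMM, and 21.4% were lower and 66.6% higher with totals, a shift of 1.08 in the median log2 fold change. The members' median was -1.59 with TMM and -0.51 with totals. Its distance from the median of all genes, which a change of scaling can hardly move, was -1.77 in both. With limma on log2(RPKM + 1) that distance was -0.97. The 66 were lower and the 3, Atp5g2, Ndufa4l2 and Ndufaf5, were higher under both. The control and pre-metastatic comparisons share the tumors, so these counts and the preceding ones are not independent.

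Where 2 or more genes encode forms of 1 subunit, their shares of the summed RPKM compare genes within a library and do not depend on the scaling. The c subunit of the ATP synthase is such a case. Atp5g1, Atp5g2 and Atp5g3 encode the same mature protein behind different import sequences. In control liver their levels were 125 to 146, 196 to 219 and 401 to 464 RPKM. The shares were 17.5 ± 0.955%, 26.5 ± 0.907% and 56.1 ± 0.365% (SD, n = 5), so that Atp5g3 led in each of the 5 livers.

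In tumors the order changed. Atp5g2 had 449 to 581 RPKM with a median of 483 in tumors, above every liver, where it reached at most 219. Atp5g3 had 189 to 328 with a median of 240 and Atp5g1 50.1 to 74.8 with a median of 57.8. The shares in tumors were 7.42 ± 0.499% for Atp5g1, 62.7 ± 4.01% for Atp5g2 and 29.9 ± 4.0% for Atp5g3 (SD, n = 9). In pre-metastatic livers they were 19.6 ± 1.34%, 28.2 ± 1.28% and 52.3 ± 2.19% (SD, n = 9). None of the 3 shares overlapped between tumors and either kind of liver (exact Wilcoxon rank-sum test, two-sided, adjusted p = 4.8e-05 against pre-metastatic and 0.0017 against control liver for each, the smallest raw p of these designs being 4.11e-05 and 0.000999). The tumor of M4, one of the 2 with muscle markers, had the lowest Atp5g2 share, 53.3%, and the highest Atp5g3 share, 38.9%. Atp5g2 was also 1 of the 3 members higher in tumor than in control liver under both scalings, with log2 fold changes of 0.21 with TMM and 1.29 with totals. The TMM call against control was lost without any 1 of controls C4, C5, C6 and C7 or tumors M10 and M12, with DESeq2 (adjusted p = 0.074) and in the early clock phase alone (log2 fold change 0.08, edgeR adjusted p = 0.42).

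The promoter windows of the 3 genes (RefSeq, GRCm38.p6, laid out as those of Ndufs7 and Sdhd) are shown because the genes encode 1 protein and moved apart. The RefSeq start of Atp5g1 lies 63 bases downstream of the start in the deposited table, and those of Atp5g2 and Atp5g3 are the same base.
Atp5g1, chr11:96075582-96075881, minus strand: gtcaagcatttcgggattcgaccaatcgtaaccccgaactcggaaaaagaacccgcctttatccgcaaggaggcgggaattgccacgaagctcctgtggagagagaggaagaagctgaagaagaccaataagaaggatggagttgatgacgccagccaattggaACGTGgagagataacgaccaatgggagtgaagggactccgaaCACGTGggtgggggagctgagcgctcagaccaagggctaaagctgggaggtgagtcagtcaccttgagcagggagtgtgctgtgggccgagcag
Atp5g2, chr15:102670998-102671297, minus strand: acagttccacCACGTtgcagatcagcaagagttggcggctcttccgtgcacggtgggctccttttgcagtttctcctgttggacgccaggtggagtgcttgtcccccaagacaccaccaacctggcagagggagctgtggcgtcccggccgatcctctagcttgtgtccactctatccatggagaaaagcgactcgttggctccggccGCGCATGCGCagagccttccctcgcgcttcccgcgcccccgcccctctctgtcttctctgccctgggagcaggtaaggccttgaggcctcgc
Atp5g3, chr2:73911277-73911576, minus strand: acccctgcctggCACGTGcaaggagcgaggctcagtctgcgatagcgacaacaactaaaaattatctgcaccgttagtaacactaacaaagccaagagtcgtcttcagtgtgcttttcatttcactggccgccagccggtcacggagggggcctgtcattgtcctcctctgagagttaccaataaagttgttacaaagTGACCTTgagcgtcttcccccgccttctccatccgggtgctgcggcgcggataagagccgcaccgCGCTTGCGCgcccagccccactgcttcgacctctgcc
Capitals mark GCGCANGCG, AAGGTCA and ACGTG, the core of the hypoxia response element, on either strand and merged where they overlap. Atp5g1 held ACGTG alone, Atp5g2 held GCGCANGCG and ACGTG, and Atp5g3 held all 3 strings. ACGTG is short and stood in 23.1% of the members' windows and 19.6% of all windows.

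The shifts from control to pre-metastatic liver were smaller in size than those between liver and tumor. The share of Atp5g3 fell by 3.80 percentage points, that of Atp5g1 was higher by 2.10 and that of Atp5g2 by 1.70 (exact Wilcoxon rank-sum test, two-sided, adjusted p = 0.021 for each, with n = 5 and 9). The shares overlapped between the groups in all 3 cases. From control liver to tumor the differences were -26.1 points for Atp5g3, -10.1 for Atp5g1 and 36.2 for Atp5g2. The direction was thus shared for Atp5g3 and Atp5g2 and opposite for Atp5g1, and the shifts were not tested against each other. The Atp5g1 call was lost without control C6 or C7 and the Atp5g2 call without control C4 or C5.

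**Figure D4:**
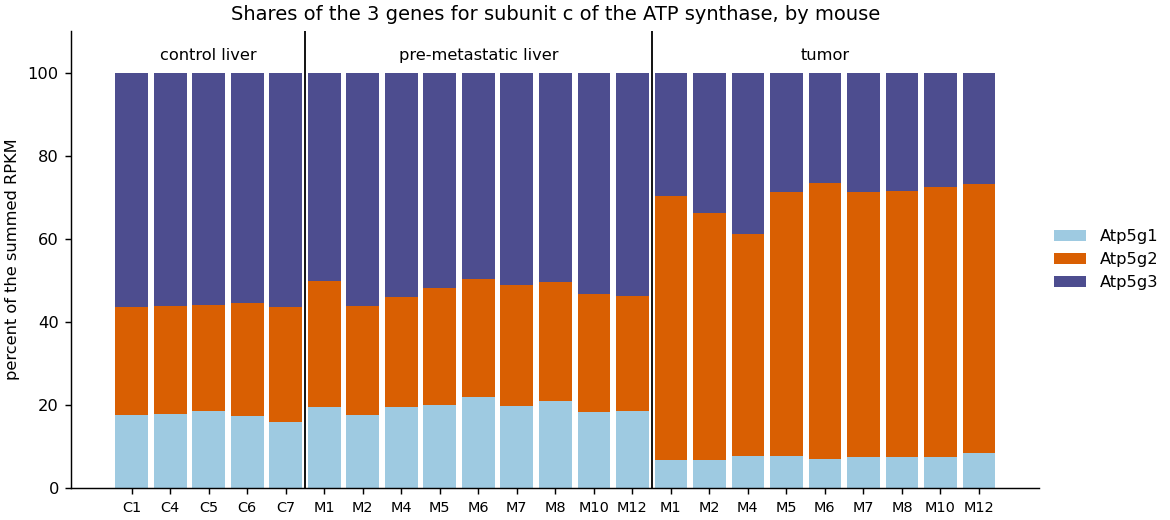
Stacked bars of the shares of Atp5g1 (light blue), Atp5g2 (orange) and Atp5g3 (dark blue) in their summed RPKM, in percent, with 1 bar for each of the 23 libraries, named by mouse. Atp5g3 has the largest share in every liver and Atp5g2 in every tumor.

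Complex IV has subunits with a ubiquitous form and a form of heart and skeletal muscle, and Ndufa4 has its paralog Ndufa4l2. Ndufa4 itself had the deepest fall in tumor of all ubiquitous subunits. Its RPKM in tumors was 111 to 179 with a median of 132, all below the lowest liver value of 348, and the log2 fold change from pre-metastatic liver was -2.85 with TMM and -1.68 with totals (edgeR adjusted p = 1.4e-14 and 4.1e-11). Ndufa4l2 had 1.28 to 11.8 RPKM with a median of 2.73 in tumors, the highest again in mouse M1. The share of Ndufa4l2 in the pair was 0.0930 ± 0.0186% in controls, 0.247 ± 0.161% in pre-metastatic livers and 3.0 ± 2.61% in tumors (SD, n = 5, 9 and 9). It did not overlap between tumors and either liver group (exact Wilcoxon rank-sum test, two-sided, adjusted p = 4.8e-05 and 0.0017). The share was also higher in pre-metastatic than in control liver (adjusted p = 0.021, same exact test), with overlap. Ndufa4 still made up over 90% of the pair in every library, since the highest Ndufa4l2 share was 9.46%. The level of Ndufa4l2 was called higher in tumor than in control liver (log2 fold change 2.0 ± 0.49, SE, edgeR adjusted p = 0.0014). Against pre-metastatic liver its adjusted p was 0.070, and 0.017 when the mouse was a block in the fit (log2 fold change 0.63).

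Cox7a2l was classed here as a factor of supercomplexes, which join complexes III and IV, and these were not measured. It had 72.9, 68.6, 74.0, 67.3 and 74.7 RPKM in the controls. Its range was 54.5 to 70.6 with a median of 66.1 in pre-metastatic livers and 139 to 190 with a median of 174 in tumors. All tumors were above all livers on the RPKM scale. The log2 fold change from pre-metastatic liver was 0.19 ± 0.08 with TMM (SE, edgeR adjusted p = 0.025) and 1.38 with totals. The TMM call was lost without mouse M1, M4, M6 or M8, among mice with late-phase livers and without the 2 mice whose tumors carried muscle markers.

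Cox6a2 and Cox7a1, the muscle forms of Cox6a1 and Cox7a2, were called higher in tumor than in pre-metastatic liver under both scalings. Cox6a2 had 0.0340 to 1.26 RPKM with a median of 0.130 in pre-metastatic livers and 2.41 to 12 with a median of 5.10 in tumors, without overlap (log2 fold change 3.20 ± 0.54 with TMM, SE, edgeR adjusted p = 1.7e-05). Cox7a1 had 0.487 to 3.40 with a median of 1.94 and 4.38 to 10.2 with a median of 8.84, also without overlap (log2 fold change 1.02 ± 0.29 with TMM, SE, edgeR adjusted p = 0.0033). The Cox7a1 call with TMM was lost among mice with late-phase livers. As a share of its pair, Cox6a2 rose from 0.0557% to 1.09% and Cox7a1 from 1.68% to 7.36% on average (exact Wilcoxon rank-sum test, two-sided, n = 9 and 9, adjusted p = 4.8e-05 for both).

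Among controls Cox6a2 was high in C1 alone, with 6.58 RPKM (262 counts) against 0.107, 0, 0 and 0.0276 RPKM (4, 0, 0 and 1 counts) in C4, C5, C6 and C7. With C1 in the fit the log2 fold change of tumor over control was 0.93 (edgeR adjusted p = 0.41), and without C1, tumor M4 and tumor M7 it was 5.89 and called. Cox8b, the muscle form of Cox8a, had too few libraries with 10 counts to be tested. It had 11.8, 0, 0.0460, 0.647 and 0 RPKM in the controls, at most 1.69 in the pre-metastatic livers, in M4, and in tumors 11.3 in M4, 2.57 in M7, 0.0586 in M6 and 0 in the other 6. Its values above 1 RPKM were thus all in the 4 libraries with skeletal muscle markers, whereas Cox6a2 was above 2 RPKM in all tumors, with or without these markers. Other muscle lists had higher medians in tumors too. The 4 heart muscle markers summed to 0.486 to 2.33 RPKM in control livers, 0.198 to 2.74 in pre-metastatic livers and 0.991 to 15.4 in tumors. The 6 smooth muscle markers summed to 5.90 to 13.6, 5.44 to 19.6 and 35.2 to 61.0 RPKM in the same order. Their part in the Cox6a2 and Cox7a1 levels was not tested. Cox7b2 had 1 count in all 23 libraries together and Cox8c had none, which allows up to 3 counts a library. These limits cover counting error only.

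**Figure D5:**
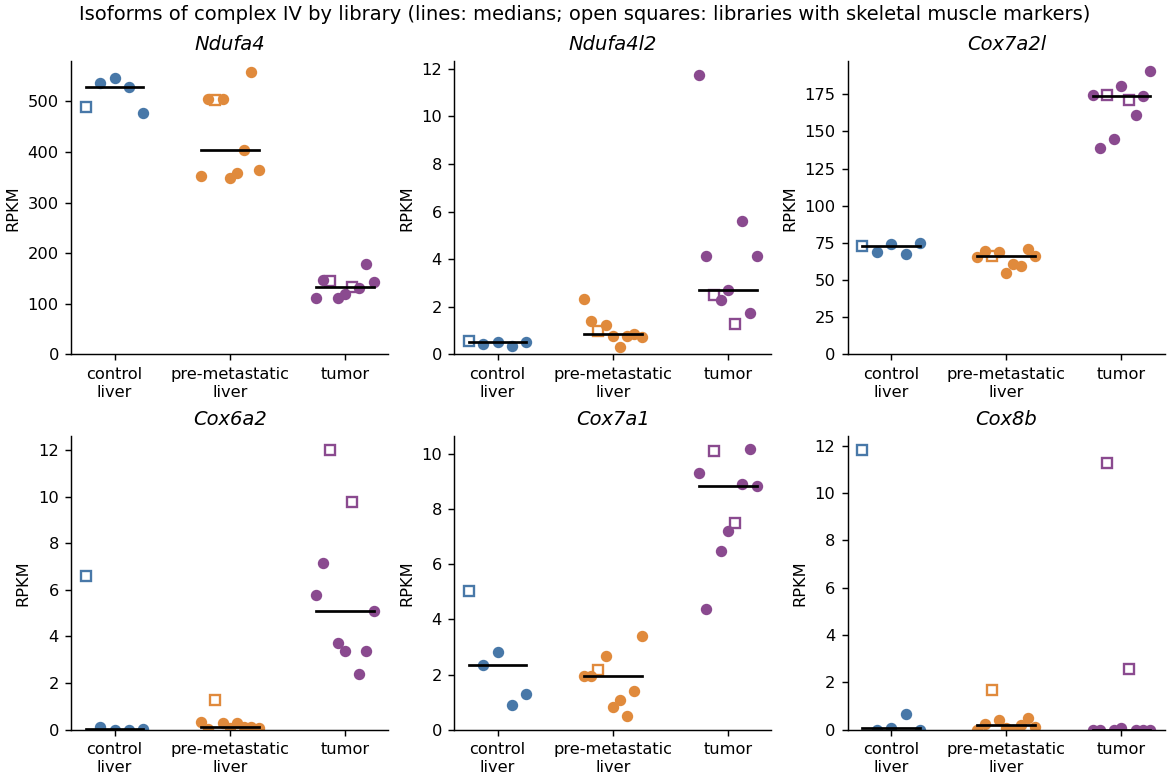
RPKM of Ndufa4, Ndufa4l2, Cox7a2l, Cox6a2, Cox7a1 and Cox8b in each library, a panel for each gene with an axis that starts at 0. Points are libraries, lines are group medians and open squares are the 4 libraries with skeletal muscle markers, which hold every Cox8b value above 1 RPKM.

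The 13 mRNAs made from mitochondrial DNA encode the remaining subunits. They were 2.87 to 3.56% of all counts in control livers, 2.15 to 3.71% in pre-metastatic livers and 1.45 to 2.19% in tumors, whereas the 91 nuclear members were 1.18 to 1.3%, 0.777 to 1.12% and 0.833 to 1.02%. In pre-metastatic liver 2 of the 13 were called lower and none higher, ND1 (log2 fold change -0.53, edgeR adjusted p = 0.0094) and COX2 (-0.47, adjusted p = 0.038), with a median of -0.13 against -0.29 for the nuclear members. Of all genes tested in liver, 13.3% were called lower, so 2 of 13 is near that share. The difference between the nuclear and the mitochondrial gene sets was not tested. In tumor all 13 were called lower than in pre-metastatic liver under both scalings, with a median of -2.11 with TMM and -0.93 with totals, and ND4 and ND6 fell the most, by 2.41 and 2.35 on the log2 scale with TMM. Of all genes tested, 40.5% were called lower with TMM and 21% with totals. The mitochondrial mRNAs can share reads with copies of mitochondrial DNA in the nuclear genome. How such reads were counted was not given in the sources used here.

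Other genes of the same pathways were read from fixed lists. Of 44 further respiratory chain genes tested in liver, mostly assembly factors, 19 were lower and 1 higher in pre-metastatic liver. Among all genes tested, 13.3% were lower and 17.7% higher. Cox4i1, the complex IV subunit that the naming rule missed, averaged 532 RPKM in control and 380 in pre-metastatic liver (log2 fold change -0.41, edgeR adjusted p = 0.0033). Cycs, the electron carrier cytochrome c, averaged 48.4 and 27.3 RPKM (-0.75, adjusted p = 7.0e-05). In tumor it averaged 60.8 RPKM, and its direction against control liver turned with the scaling, with a log2 fold change of -0.76 with TMM and 0.33 with totals (edgeR adjusted p = 6.2e-06 and 0.011). Sco2, which delivers copper to complex IV, and Lyrm7, which helps to insert the Rieske protein, fell by 1.04 and 0.99 on the log2 scale. The 1 gene that was higher was Atpif1, the inhibitor of the ATP synthase, at 7.51 and 9.99 RPKM on average (0.49, adjusted p = 0.0092). In tumor Atpif1 averaged 68.7 RPKM and was higher than in pre-metastatic liver under both scalings (log2 fold change 1.60 with TMM and 2.78 with totals).

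In the TCA cycle, which supplies the NADH and succinate, 14 of 18 genes were lower and 1 higher in pre-metastatic liver. Their median log2 fold change was -0.53. The shares over all genes, for this list and the next, were 13.3% lower and 17.7% higher. Fh1, fumarase, fell by 0.81 on the log2 scale (edgeR adjusted p = 0.00092). Suclg2, a subunit of succinyl-CoA ligase, was the one called higher (0.33, adjusted p = 0.015). Of 16 regulators of mitochondrial genes, 4 were lower and none higher, among them Esrra, estrogen-related receptor alpha, which averaged 24.0 and 12.7 RPKM (-0.84, adjusted p = 0.0021), and Perm1 (-1.11, adjusted p = 0.011). Ppargc1a, the coactivator PGC-1 alpha, averaged 1.08 and 0.545 RPKM and was not called (adjusted p = 0.066).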

How the data were processed

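Deposited values were counts of reads per gene and RPKM for 23 libraries in 1 table with gene length, strand and type. The authors' processing notes name HISAT2, HTSeq 0.6.0 and the mm10 genome. Strand setting and the handling of reads that map to several places were not given in the sources used here, so genes with pseudogene copies or an overlapping gene on the other strand (Atp5d and Cbarp over 1368 bases, Atp5j and Gabpa over 701, Cox6a2 and Itgad over 70) are uncertain. The deposited RPKM values were recomputed from the deposited counts, lengths and library totals to within 1.75e-06 of each value.

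Groups came from the sample labels. Members, gene lists, clock phases and tests were chosen with earlier results of these data known. Counts were tested with edgeR 4.0.16 (quasi-likelihood, TMM, at least 10 counts in as many libraries as the smaller group, Benjamini-Hochberg over all genes, adjusted p under 0.05), each comparison on its 2 groups. Isoform shares of RPKM were compared library by library with a rank-sum test (Wilcoxon, exact, two-sided), adjusted over 7 shares. The p-values set group differences against the spread between libraries of a group. In tumor against pre-metastatic liver, the main edgeR fit and the rank-sum test did not pair libraries by mouse. Named members were the largest called changes in each comparison, complex II, isoform pairs, untested members and the highest and lowest of each complex. Ndufa8, Ndufs8, Ndufv1, Cox5b, Atp5h and Atp5o were added after their values were seen. Alternatives were DESeq2 1.42.0, limma 3.58.1 on log2(RPKM + 1) and voom, other scalings and filters, clock phase, leaving out libraries, the mouse as a block, and, chosen after seeing the data, leaving out libraries with muscle markers. Tumor and liver of a mouse are paired by the labels. Their deviations from the group means correlated at 0.0727 on average over 17827 genes (-0.0315 to 0.189), and at 0.188 over 88 members (-0.0223 to 0.696). Tumors and livers of different mice gave -0.00935 over the same 17827 genes (-0.143 to 0.139), a range that overlapped. No value for different mice was computed over the members. Statistics were tested on simulated data. For the edgeR fit, a small set of genes was changed by known folds in both directions. No shift in composition like that between tumor and liver was simulated, so this could not test the choice of scaling. Single values of 2 genes are not reported here. Library totals were 51064615 to 60393702 counts in control livers, 44587556 to 79773163 in pre-metastatic livers and 47005276 to 70884436 in tumors.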

Additional observations from a re-analysis of the deposited data

Results flagged for a closer look

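Some single libraries stood far from the rest of their group by Dixon's criterion, 12 values among 150 groups of values examined, and chance alone marks about 1 group in 20. The summed RPKM of the 13 mitochondrial mRNAs was lowest in control C7, at 23176 against 27197 for the next control.

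Muscle forms of complex IV subunits stood apart in libraries with skeletal muscle markers. In control C1 the Cox6a2 level was 6.58 RPKM against 0.107 in the next library, its share of the pair with Cox6a1 was 0.825% against 0.0149%, and the Cox8b share was 2.56% against 0.172%. In the liver of M4 the Cox6a2 level was 1.26 RPKM against 0.312, its share 0.249% against 0.0698%, and the Cox8b share 0.521% against 0.128%. In the tumor of M4 the Cox8b share was 3.73% against 1.0% in M7. The Cox7a1 share was lowest in the tumor of M2, at 3.54% against 6.69%.

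Ndufa4l2 stood apart in both tissues of 1 mouse, M1. Its share of the pair with Ndufa4 was 0.652% in the liver of M1 against 0.280% in the next liver, and 9.46% in the tumor against 4.12%. The tumor level was 11.8 RPKM against 5.60.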

How the results depend on the processing

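The 56 members called lower in pre-metastatic liver numbered 41 to 65 under the alternatives other than leaving out 1 library, fewest without libraries with muscle markers and most with limma on log2(RPKM + 1). For single named members and shares, 2227 values under alternatives kept their direction and their side of the threshold, 31 changed direction, 48 lost a call and 28 gained one.

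With library totals or limma on log2(RPKM + 1), the tumor comparisons moved most. Against pre-metastatic liver 37 members were lower under each, not 82, and 19 or 20 were higher, not 5. Against control liver 9 or 11 were higher, not 3. Log2 fold changes that turned positive under these were those of Atp5b (0.62 and 0.62 against pre-metastatic, 0.10 and 0.089 against control liver), Cox6a1 (0.067 and 0.071), Cox8a (0.19 and 0.18) and Ndufaf2 (0.71 and 0.66, and 0.52 and 0.47 against control liver). Members higher in tumor than in control liver were also 5 with upper-quartile factors, 5 with voom, 1 in the early clock phase and 5 without libraries with muscle markers. Against pre-metastatic liver they were 3 in the late phase. The single member higher in pre-metastatic liver became 0 in the early phase, with limma on log2(RPKM + 1) and with voom.

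Leaving out 1 library in turn gave 0 to 1 members higher and 39 to 66 lower in pre-metastatic liver, and 2 to 5 higher in tumor than in control liver. Values that rested on control C1 turned without it. The log2 fold change of Cox6a2 in pre-metastatic liver went from -2.30 to 3.01 without C1 (1.09 with voom), over a range of -2.60 to 3.01, and that of Cox7a1 to 0.042 (0.0056 without all muscle libraries), over a range of -0.66 to 0.042. The share differences of Cox6a2, Cox7a1 and Cox8b ran from -0.155, -0.488 and -0.577 to 0.0509, 0.280 and 0.0635 percentage points, and were 0.0267, 0.273 and 0.0120 without all muscle libraries. The Cox8b share difference between tumor and control liver ran from -0.421 without tumor M4 to 0.482 without C1, with 0.0419 to 0.0443 without 1 of the other tumors but M7, and that between tumor and pre-metastatic liver to -0.0633 without muscle libraries.

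With the mouse as a replicate block, 6 members were higher and 81 lower in tumor than in pre-metastatic liver, and Ndufa4l2 was the named member whose call changed. The cause of these changes was not tested.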

Other observations

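Other genes of the pathway were read in tumors as well. Against pre-metastatic liver, the 45 further respiratory chain genes were higher in 3 cases and lower in 38 with TMM. With library totals they were higher in 18 and lower in 15. Of all genes tested, 43.8% were higher and 40.5% lower with TMM, and 68.5% and 21% with totals. Uqcc2, a complex III assembly factor, averaged 23.2 RPKM in pre-metastatic livers and 106 in tumors, and was called higher under both scalings (log2 fold change 1.01 with TMM and 2.19 with totals). Coa7 and Ecsit, assembly factors of complexes IV and I, fell under both, by 2.86 and 2.36 on the log2 scale with TMM. In the TCA cycle 4 of 18 genes were higher and 13 lower with TMM, and 10 higher and 6 lower with totals. Cs, citrate synthase, and Pdha1, of pyruvate dehydrogenase, averaged 29.5 and 23.1 RPKM in pre-metastatic livers and 89.3 and 79.0 in tumors, higher under both scalings. Suclg1 and Suclg2 fell by 2.45 and 2.48 with TMM and were lower with totals too.

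Of the 16 regulators, 5 were higher and 8 lower in tumor with TMM, and 9 higher and 3 lower with totals. The shares over all genes were 43.8% higher and 40.5% lower with TMM, and 68.5% and 21% with totals. Whether the regulators differed from these shares was not tested. Myc averaged 4.02 RPKM in pre-metastatic livers and 49.8 in tumors, and Pprc1, a relative of PGC-1 alpha, 2.77 and 13.8, both higher under both scalings. Ppara, the lipid-sensing receptor of liver, averaged 19.6 RPKM in pre-metastatic livers and 0.0152 in tumors, where its counts were 0 to 42 a library. Ppargc1a was lower in tumor under both, by 2.08 with TMM.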
